A study of Mus musculus with 2 samples.

Results

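The genes described here are 9 that encode parts of the contractile machinery or mark myofibroblasts, the contractile fibroblasts of scars and tumors. They are Acta2, Tagln, Actg2, Myh11, Myl9, Cnn1, Tpm2, Lrrc15 and Col8a1, and all 9 were chosen by name from the 32285 genes of the count tables. The authors of these data had reported Acta2, Tagln, Actg2, Lrrc15 and Col8a1 as enriched in their TSK fibroblast cluster. Counts of genes higher in TSK are therefore not independent of that report. Their expression was read in mural cells, the pericytes and smooth muscle cells that wrap blood vessels, and in fibroblasts of subcutaneous tumors from wild type (WT) and tight skin (TSK) mice. The tumors grew from 1000000 injected SO cells, a mouse ovarian cancer line, in female C57BL/6 mice aged 6 to 8 weeks. TSK mice carry a duplication inside the fibrillin-1 gene Fbn1 in all of their own cells, whereas the injected cancer cells were the same in both groups. The tumors of several mice per genotype were pooled, dead cells and red blood cells were removed, no cell type was sorted, and 1 single-cell RNA library was made for each genotype. With 1 library per genotype there was no replicate, so a difference between the libraries carries no p-value, a genotype effect and a library effect cannot be told apart, and the 95% intervals below cover counting error only.

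Contraction in these cells depends on actin filaments pulled by myosin. Acta2 and Actg2 encode the vascular and enteric smooth muscle actins, Myh11 the smooth muscle myosin heavy chain and Myl9 a regulatory light chain of myosin. Cnn1 (calponin) and Tpm2 (a tropomyosin) bind actin filaments and regulate them, and Tagln encodes transgelin, an actin-binding protein of early smooth muscle differentiation. Lrrc15 is a membrane protein known from activated, TGF-beta-exposed fibroblasts, and Col8a1 is a chain of the short-chain collagen VIII of vessel walls and matrix. Many contractile genes are driven by serum response factor (SRF) with its myocardin-family partners, which binds the CArG box in their promoters.

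The CArG box, in words, is 2 C, then 6 bases that are all A or T, then 2 G, and because it reads alike on both strands 1 scan covered both. Of the 9 genes, 6 (Acta2, Cnn1, Col8a1, Lrrc15, Myl9 and Tpm2) were matched to RefSeq promoters of GRCm38.p6, and the 250 bases before their start sites were searched, allowing at most 1 middle base other than A or T. The hits are printed with their flanks because Acta2 and Myl9 are contractile genes whose levels are given below, with the 10 bases of the match in capitals and written 5′ to 3′ on the gene's strand.
Acta2, chr19:34255438-34255467 (minus strand), 84 bases before the start: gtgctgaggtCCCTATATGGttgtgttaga
Acta2, chr19:34255388-34255417 (minus strand), 34 bases before the start: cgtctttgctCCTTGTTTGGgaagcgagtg
Myl9, chr2:156775293-156775322 (plus strand), 161 bases before the start: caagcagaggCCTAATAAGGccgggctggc
Myl9, chr2:156775355-156775384 (plus strand), 99 bases before the start: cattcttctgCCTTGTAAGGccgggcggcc
The distances run from the first base of each match to the RefSeq start. The first Myl9 match has A or T at all 6 middle positions, and each of the other matches has 1 middle base that is neither. A match with all 6 was present in 1.47% of 32851 RefSeq promoters of 27025 genes, and a match allowing 1 other base in 8.59%. The printed stretches of Acta2 overlap an exon of the GENCODE M21 annotation, whose start for this gene is farther upstream than that of RefSeq. The other 4 promoters held no match in these 250 bases.

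All 9 genes are protein coding in GENCODE M21 on GRCm38. Acta2 (ENSMUSG00000035783) lies on the minus strand of chr19:34241090-34255590 and Actg2 (ENSMUSG00000059430) on that of chr6:83512905-83536265. Since both encode nearly identical actins, reads from shared sequence may have been dropped or assigned to either, which was not tested. Tagln (ENSMUSG00000032085, chr9:45929619-45936058, minus) and Cnn1 (ENSMUSG00000001349, chr9:22099216-22109630, plus) share a chromosome. Myh11 (ENSMUSG00000018830, chr16:14194535-14291372), Lrrc15 (ENSMUSG00000052316, chr16:30269302-30283256) and Col8a1 (ENSMUSG00000068196, chr16:57624258-57754737) all lie on the minus strand of chromosome 16. Myl9 (ENSMUSG00000067818) lies on chr2:156775420-156781658, plus strand, and Tpm2 (ENSMUSG00000028464) on chr4:43514711-43523765, minus strand.

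Expression was counted in unique molecular identifiers (UMIs), each of which tags 1 captured RNA molecule. Cells were kept with at least 200 genes, at least 500 UMIs and at most 10% mitochondrial UMIs, and 263 barcodes found in both libraries were left out. This left 1442 of 2332 WT barcodes and 2961 of 4436 TSK barcodes, with median depths of 7658.5 and 7302 UMIs. A cell met the mural rule with at least 3 UMIs of Rgs5, Notch3, Kcnj8 and Myh11 together, and the fibroblast rule with at least 3 UMIs of Dcn, Lum and Pdgfra together. Cells that met both rules were held apart. The mural rule alone was met by 41 WT cells (2.84%, exact binomial 95% interval 2.05 to 3.84) and 67 TSK cells (2.26%, 1.76 to 2.86), so the intervals of the shares overlapped. The fibroblast rule alone was met by 172 WT cells (11.9%) and 652 TSK cells (22.0%), and both rules by 15 WT cells and 28 TSK cells. Since Myh11 helped to choose the mural cells, its level there is a description, and counts of the genes below leave it out.

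The names of the rules fitted the data in part, and the cells are therefore called mural-rule and fibroblast-rule cells. At least 3 UMIs of the endothelial genes Pecam1, Cdh5 and Kdr together were found in 25 of 41 WT mural-rule cells (61.0%) and in 33 of 67 TSK mural-rule cells (49.3%). The 8 endothelial marker genes examined summed to 2926 counts per 1000000 UMIs (CPM) in WT and 3100 CPM in TSK mural-rule cells. At least 3 UMIs of the cancer cell genes Lgals7, Cdkn2a and Krt18 together were found in 5 WT mural-rule cells (12.2%) and 8 TSK mural-rule cells (11.9%). Leukocyte markers were found in 2 and 0. This left 12 WT (29.3%) and 28 TSK (41.8%) mural-rule cells without markers of another cell type. Among these, Rgs5, a marker of pericytes, stood at 2456 CPM in WT and 2045 CPM in TSK cells. Dcn stood at 15.4 CPM in both, and Lum and Pdgfra at 0. These genes are part of the rules, so their levels follow from the choice of cells. In all mural-rule cells 11 pericyte genes outside the rules summed to 1918 CPM in WT and 2320 CPM in TSK. In all fibroblast-rule cells they summed to 1093 and 296 CPM. The collagen gene Col1a1 stood at 887 and 1588 CPM in all mural-rule cells. In fibroblast-rule cells the cancer genes reached the limit in 39 of 172 WT cells (22.7%) and in 436 of 652 TSK cells (66.9%). The endothelial genes reached it in 58 WT (33.7%) and 142 TSK cells (21.8%), and the leukocyte genes in 11 and 15. Fibroblast-rule cells held 721 Pecam1 UMIs in WT and 1844 in TSK, beside 2 and 45 of Cdh5 and 8 and 47 of Kdr. Whether the cells with Pecam1 were of another type was not tested. Below the limit for all 3 marker sets were 74 WT (43.0%) and 181 TSK (27.8%) cells. These 74 and 181 cells had Dcn, a proteoglycan of fibroblasts and a gene of their rule, at 3458 and 3533 CPM. Comparisons of these 2 kinds of cells are given with all cells of a rule and again with the cells without markers of others. Whether cells with markers of several types were doublets was not tested, and no doublet caller was run.

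Mural-rule cells held 5.82% of all UMIs of kept cells in WT and 2.10% in TSK, and fibroblast-rule cells 26.3% and 42.1%, against which the shares of each gene can be read. Mural-rule cells held 47.0% of all Acta2 UMIs in WT and 45.1% in TSK. For Myl9 the shares were 52.7% and 41.5%, and for Tagln 32.6% and 24.3%. Myh11, whose UMIs helped to choose these cells, had 88.8% of its UMIs there in WT and 43.8% in TSK. Actg2 had 24.3% of its UMIs there in WT and 45.5% in TSK, and Cnn1 64.4% and 15.4%. Lrrc15 and Col8a1, the matrix and activation genes, had most of their UMIs in fibroblast-rule cells. These held 54.5% of the UMIs of either gene in WT, and 84.8% of Lrrc15 and 74.4% of Col8a1 in TSK. The levels in CPM, given below, did not all follow these shares. Fibroblast-rule cells held 29.1% of the Tpm2 UMIs in WT and 44.5% in TSK, near their shares of all UMIs. Cells with cancer markers alone held 20.6% and 21.4% of Tpm2, where they held 8.40% of all UMIs in WT and 31.9% in TSK.

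**Figure D1:**
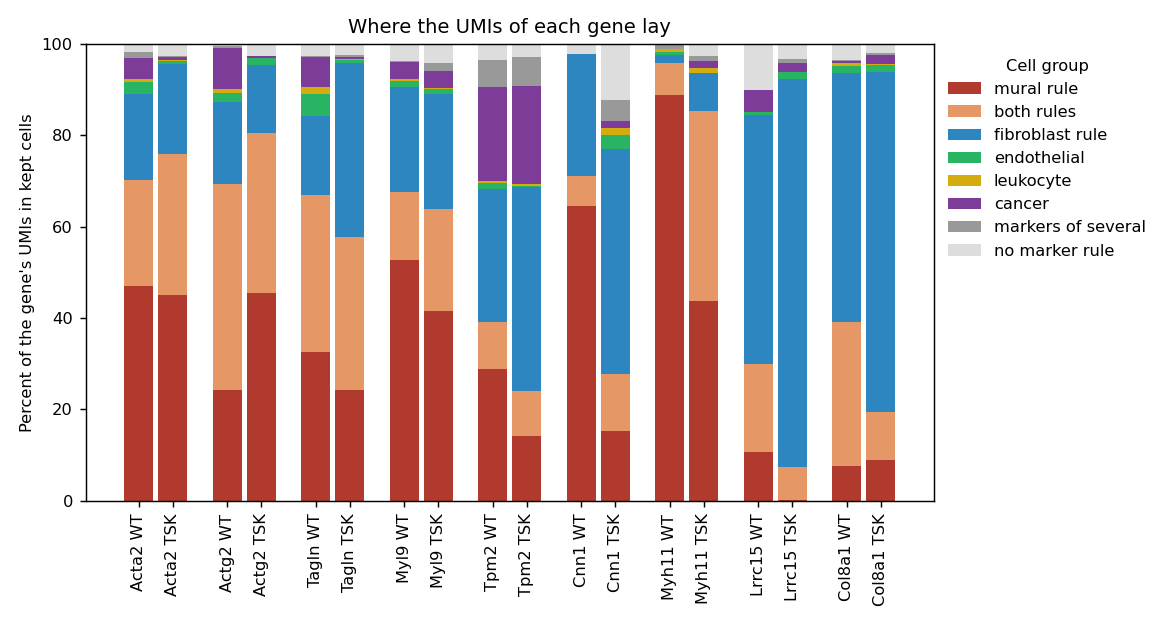
Share (percent) of each gene's UMIs found in each group of cells, stacked to the whole, for the WT and the TSK library. Mural-rule cells hold 47.0% of Acta2 in WT and 45.1% in TSK, and fibroblast-rule cells hold 84.8% of Lrrc15 in TSK.

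Acta2 UMIs were rare in cells that should lack the gene, where free RNA in the droplets can place them. Among leukocytes 11 of 738 WT cells (1.49%, median depth 7363.5 UMIs) and 13 of 747 TSK cells (1.74%, median depth 3871 UMIs) had an Acta2 UMI. Among mural-rule cells, 22 of 41 WT cells (53.7%, median depth 22031 UMIs) and 50 of 67 TSK cells (74.6%, median depth 11246 UMIs) did. When every cell was thinned to 1000 UMIs, which left out 2 TSK mural-rule cells, the shares were 8 of 41 (19.5%) and 39 of 65 (60.0%).

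Mural-rule cells were first set against fibroblast-rule cells of the same library, to ask which stromal cells held each gene. A gene was called higher or lower at a 2-fold difference in CPM with at least 20 UMIs over both sides. In the WT library 6 of the 8 genes outside the rules were higher in mural-rule cells and 0 were lower, where 12.6% of all genes with enough UMIs were higher and 13.8% were lower. In the TSK library 7 of 8 were higher and 1 was lower, against 14.4% and 19.7% of all such genes.

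The actins were higher in mural-rule cells of both libraries. Acta2 stood at 718 CPM in mural-rule and 63.3 CPM in fibroblast-rule cells of the WT library (log2 ratio 3.51, 95% interval 3.30 to 3.71), and at 2703 against 59.0 CPM in the TSK library (5.52, 5.42 to 5.62). Actg2 stood at 61.4 against 10.0 CPM in WT (2.61) and at 408 against 6.66 CPM in TSK (5.94). Myl9, Tagln and Tpm2 were likewise higher in the mural-rule cells of both libraries, with log2 ratios of 3.38, 3.08 and 2.17 in WT and 5.06, 3.68 and 2.68 in TSK. Cnn1 had few molecules, 29 UMIs in WT and 10 in TSK mural-rule cells, at log2 ratios of 3.45 and 2.65.

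Lrrc15 and Col8a1, the genes of activated fibroblasts and matrix, were not called in WT. Lrrc15 stood at 18.1 CPM in mural-rule and 20.3 CPM in fibroblast-rule cells of WT (log2 ratio -0.16, interval -0.98 to 0.58). In the TSK library 1 Lrrc15 UMI was found in mural-rule cells and 329 in fibroblast-rule cells (log2 ratio -4.04, -9.34 to -1.55). Col8a1 stood at 107 against 168 CPM in WT (-0.66) and at 217 against 90.5 CPM in TSK (1.26), on opposite sides of the line.

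Without cells that held markers of others, 6 of 8 genes were higher in WT mural-rule cells and 0 were lower, and these were the contractile genes Acta2 (log2 ratio 4.59), Tagln (4.52), Actg2 (3.74), Myl9 (4.03), Cnn1 (4.89) and Tpm2 (4.11). Of all genes with enough UMIs 20.9% were higher and 20% were lower. In TSK, 5 of 7 genes with enough UMIs were higher and 1 was lower, against 14.3% and 21.6% of all genes. The TSK log2 ratios were 6.05 for Actg2, 4.32 for Acta2, 3.99 for Myl9, 2.59 for Tagln and 2.45 for Tpm2. Lrrc15 was the gene that was lower, with 0 UMIs in 28 mural-rule cells and 236 UMIs in fibroblast-rule cells. For Col8a1 the TSK ratio turned from 1.26 to -0.62, so its direction depended on which cells were counted.

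**Figure D2:**
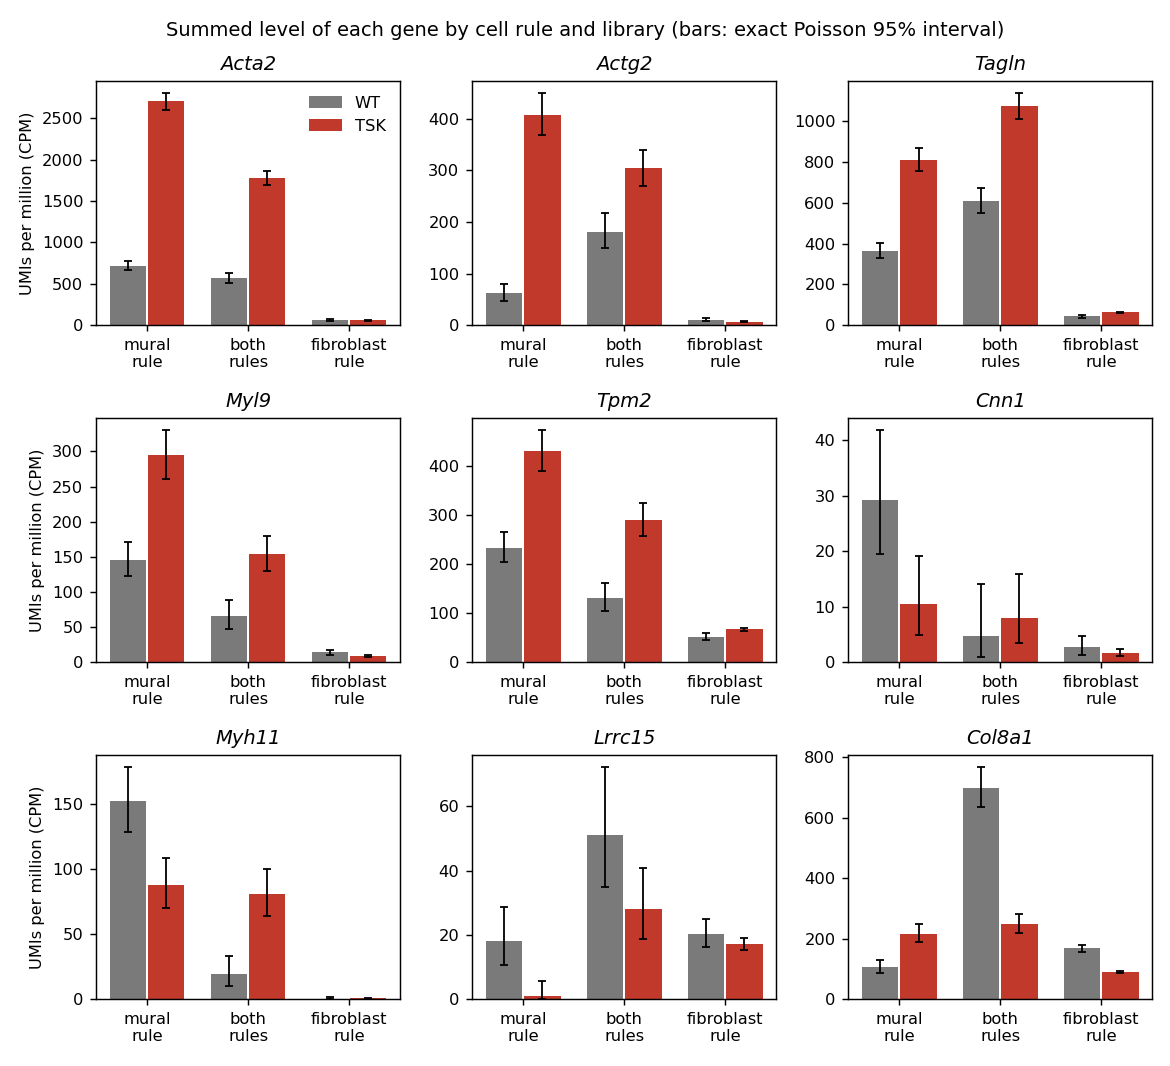
Level of each gene in CPM (vertical axis, a separate scale per panel) in mural-rule, fibroblast-rule and both-rules cells of the WT and TSK libraries, with exact Poisson 95% intervals as error bars. Acta2 reaches 718 CPM in WT and 2703 CPM in TSK mural-rule cells but 63.3 and 59.0 CPM in fibroblast-rule cells.

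The TSK library was then set against the WT library within mural-rule cells, to ask how the contractile genes of vessel-wrapping cells differed between the hosts. Of the 7 genes outside the rule with enough UMIs, 5 were higher in TSK (Acta2, Actg2, Tagln, Myl9 and Col8a1), 1 was lower (Cnn1) and Tpm2 lay between. Among all 8706 genes with enough UMIs 10.9% were higher and 8.07% were lower. The median log2 ratio was 1.03 over these genes and 0.19 over all 8706. When the libraries were scaled so that this all-gene median was 0, the count of genes higher in TSK was 2 rather than 5, since Tagln, Myl9 and Col8a1 lay close to the 2-fold line.

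Acta2, the vascular smooth muscle actin, was higher in the sum and in the median cell. Its summed level was 718 CPM in WT mural-rule cells (714 UMIs) and 2703 CPM in TSK mural-rule cells (2590 UMIs), a log2 ratio of 1.91 (1.79 to 2.03). Over the 41 WT cells its level ran from 0 through a median of 23.0 to 7774 CPM, and over the 67 TSK cells from 0 through a median of 2854 to 10722 CPM. The ranges overlapped, since 19 WT and 17 TSK cells had no Acta2 UMI.

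Actg2 had the largest ratio of the 9. It went from 61.4 CPM in WT (61 UMIs) to 408 CPM in TSK (391 UMIs), a log2 ratio of 2.73 (2.34 to 3.15). This was the fourth highest of 5441 genes with at least 50 UMIs in mural-rule cells and 10 in each library. Actg2 had a UMI in 4 of 41 WT cells and 45 of 67 TSK cells, so that its per-cell median was 0 CPM in WT and 309 CPM in TSK, while its highest cells were at 1123 and 1990 CPM. After thinning to 1000 UMIs, at which most molecules of a cell are left out, it was seen in 0 of 41 WT cells, and 3 counts would make 7.32% of cells with a UMI at that depth. It was seen in 22 of 65 TSK cells (33.8%).

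The genes that bind or regulate the filaments had smaller ratios. Tagln went from 365 to 811 CPM (log2 ratio 1.15, 0.97 to 1.33), with per-cell medians of 0 in WT and 602 CPM in TSK. Myl9 went from 146 to 294 CPM (1.01, 0.72 to 1.31) and Tpm2 from 233 to 431 CPM (0.89, 0.65 to 1.12). Myl9 lay at the 2-fold line and Tpm2 just under it, with intervals that include the line in both cases. Col8a1 went from 107 to 217 CPM (1.03, 0.68 to 1.38).

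Cnn1, Myh11 and Lrrc15 had the opposite sign in the sums, and 1 WT cell carried most of their molecules. Cnn1 had 29 UMIs in WT and 10 in TSK mural-rule cells (log2 ratio -1.48), Lrrc15 had 18 and 1, and Myh11 had 151 and 84. A single WT cell of 33831 UMIs held 28 of the 29 Cnn1 UMIs, 17 of the 18 Lrrc15 UMIs and 112 of the 151 Myh11 UMIs. The same cell held 263 Acta2, 199 Tagln, 58 Tpm2, 53 Myl9 and 38 Actg2 UMIs, 42.5% of all UMIs of the 9 genes in WT mural-rule cells, and no UMI of Dcn, Lum, Pdgfra or Pecam1. Without it the Cnn1 log2 ratio was 3.33, from 10 UMIs against 1, and that of Myh11 was 1.11, from 84 against 39. All 6 genes with enough UMIs were then higher in TSK. This cell was picked for holding the most UMIs of the 9 genes, and no TSK cell was left out. Higher ratios for the genes it was rich in follow from that choice and give no direction between the libraries. The share of all genes called without this cell is not given, so the count of 6 cannot be set against all genes. In TSK the leading cell held 10.5% of the UMIs of the 9 genes, and 10 cells made up at least 50% of the Acta2 UMIs where 2 did in WT.

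The count of 5 was not kept when cells with endothelial, leukocyte or cancer markers were left out. Between the 12 WT and 28 TSK mural-rule cells that remained, 1 of 7 genes was higher in TSK (Actg2) and 1 was lower (Cnn1), where 14.8% of 3642 genes were higher and 9.06% were lower. The median log2 ratio was 0.39 over these genes and 0.23 over all 3642. Actg2 went from 308 to 806 CPM (1.39, 0.97 to 1.83) and Acta2 from 2953 to 5506 CPM (0.90, 0.76 to 1.04). Col8a1 (0.79, 0.26 to 1.34) and Tagln (0.39, 0.17 to 0.62) kept intervals above 0. Myl9 (0.10, -0.29 to 0.50) and Tpm2 (0.10, -0.22 to 0.41) had intervals on both sides of 0. The WT leading cell was 1 of these 12. Without it as well, the log2 ratios were 2.56 for Actg2, 2.21 for Tagln, 1.50 for Acta2, 1.02 for Myl9, 0.70 for Col8a1 and 0.57 for Tpm2, and 4 of 6 genes were higher. The 14.8% of all genes belongs to the comparison with 12 WT cells, and the share without the leading cell is not given. Again only a WT cell was left out, picked for its UMIs of these genes, so this count follows in part from that choice.

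A single rich cell can set a sum but not the number of cells with a gene, which is given next. Among mural-rule cells without markers of others, Actg2 had a UMI in 3 of 12 WT cells (25.0%, exact binomial 95% interval 5.49 to 57.2) and in 25 of 28 TSK cells (89.3%, 71.8 to 97.7). For Acta2 these were 9 of 12 (75.0%, 42.8 to 94.5) and 26 of 28 (92.9%, 76.5 to 99.1). These intervals cover the sampling of cells within a library, not the spread between mice. Per-cell medians went from 0 to 957 CPM for Actg2 and from 778 to 5934 CPM for Acta2. The median depth of these cells was close, 9761.5 UMIs in WT and 8874 in TSK. Myh11 had a UMI in 11 of 12 WT cells and 14 of 28 TSK cells. Since its UMIs helped to choose these cells, these counts are a description and give no direction between the libraries.

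**Figure D3:**
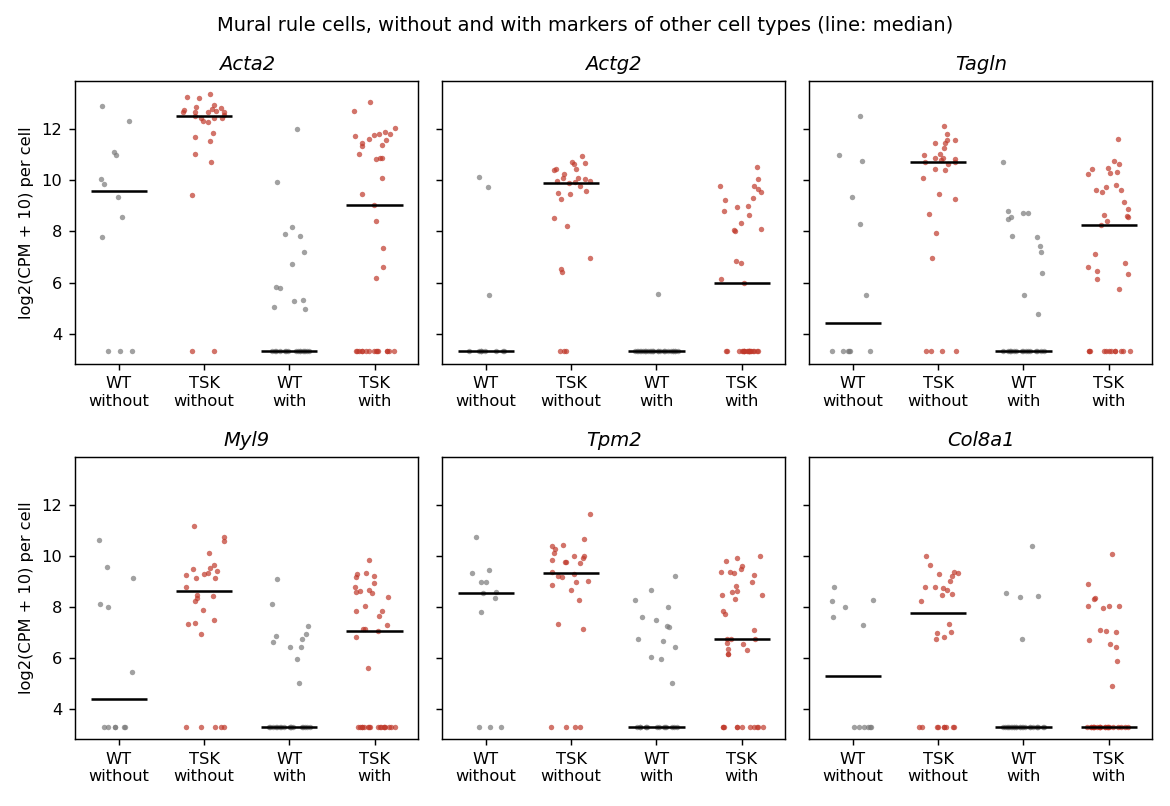
Level of 6 genes in each mural-rule cell on a log2(CPM + 10) axis, for WT and TSK cells without and with markers of other cell types (each point 1 cell, line the median). Among cells without such markers the median of Actg2 is 0 CPM in WT and 957 CPM in TSK, and that of Acta2 is 778 and 5934 CPM.

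Within mural-rule cells Actg2, Tagln, Myl9, Tpm2 and Col8a1 tended to be found in the same cells as Acta2, and Cnn1, Myh11 and Lrrc15 less so in TSK. Over the 67 TSK cells the Pearson correlation of log2(CPM + 10) with Acta2 was 0.89 for Actg2, 0.84 for Tagln, 0.78 for Myl9, 0.73 for Tpm2 and 0.65 for Col8a1. It was 0.44 for Myh11, 0.23 for Cnn1 and -0.20 for Lrrc15, and -0.69 for the endothelial gene Pecam1. Over the 41 WT cells it lay between 0.36 (Lrrc15) and 0.67 (Tpm2) for the other 8 genes, with 0.59 for Actg2 and 0.54 for Tagln, and was -0.39 for Pecam1. These are descriptions over cells of 1 library, which share its depth. Acta2 and Actg2 were also higher in cells with smooth muscle genes that are not among the 9. Cells with at least 2 UMIs of Lmod1, Synpo2, Des, Pln and Ppp1r14a together numbered 23 of 41 in WT and 50 of 67 in TSK. Acta2 stood at 1197 CPM in the former and 52.9 CPM in the other 18 cells in WT, and at 3535 against 48.1 CPM in TSK. Actg2 stood at 105.5 against 0 CPM in WT and at 532 against 13.1 CPM in TSK. Endothelial markers were present in 16 of the 23 and 9 of the other 18 WT cells, and in 21 of the 50 and 12 of the other 17 TSK cells.

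In fibroblast-rule cells, with all of them counted, none of the 8 genes reached a 2-fold difference between the libraries, 0 higher and 0 lower, where 23.7% of 14480 genes were higher in TSK and 15.4% were lower. The median log2 ratio was -0.42 over the 8 genes and 0.29 over all 14480. Acta2 stood at 63.3 CPM in WT (284 UMIs) and 59.0 CPM in TSK (1133 UMIs), a log2 ratio of -0.10 (-0.29 to 0.09). Tagln went from 43.2 to 63.1 CPM (0.55, 0.33 to 0.77) and Tpm2 from 51.9 to 67.2 CPM (0.37, 0.17 to 0.58). Col8a1 had the largest difference, from 168 to 90.5 CPM (-0.89, -1.02 to -0.77). Lrrc15, the fibroblast activation gene, stood at 20.3 CPM in WT and 17.1 CPM in TSK (-0.24, -0.58 to 0.11).

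Of the 3 marker sets, that of cancer cells differed most in share between the libraries in these cells, at 22.7% in WT and 66.9% in TSK. Fibroblast-rule cells with cancer markers had Acta2 at 4.74 CPM in WT and 29.6 CPM in TSK, Lrrc15 at 0.677 and 2.81 CPM and Col8a1 at 14.9 and 18.7 CPM. Their Col1a1, the main chain of collagen I, stood at 540 and 137 CPM. Between the 74 WT and 181 TSK fibroblast-rule cells without markers of others, 5 of 8 genes were higher in TSK and 0 were lower, where 16.6% of 9558 genes were higher and 3.02% were lower. The median log2 ratio was 1.15 over the 8 genes and 0.41 over all 9558.

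Tagln led these 5 genes, going from 58.2 to 290 CPM (log2 ratio 2.32, 1.98 to 2.67). Tpm2 went from 42.4 to 143 CPM (1.75, 1.34 to 2.18), Lrrc15 from 44.6 to 120 CPM (1.42, 1.02 to 1.85), Acta2 from 123 to 275 CPM (1.16, 0.91 to 1.42) and Col8a1 from 266 to 586 CPM (1.14, 0.97 to 1.31). The smooth muscle genes Actg2 (-0.92), Myl9 (0.14) and Cnn1 (0.39) were not called and had at most 64 UMIs in either library. The levels came with more cells for some of the genes. Col8a1 had a UMI in 26 of 74 WT cells (35.1%, 24.4 to 47.1) and 111 of 181 TSK cells (61.3%, 53.8 to 68.5), Acta2 in 6 (8.11%) and 40 (22.1%), and Lrrc15 in 15 (20.3%) and 50 (27.6%). The WT cells were deeper here, at a median of 19359.5 UMIs against 10630. A single WT cell held 137 of the 171 Acta2 UMIs, and without the top cell of each library the Acta2 log2 ratio was 2.88, against 2.70 for Tagln, 2.79 for Tpm2, 1.72 for Lrrc15 and 1.56 for Col8a1.

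**Figure D4:**
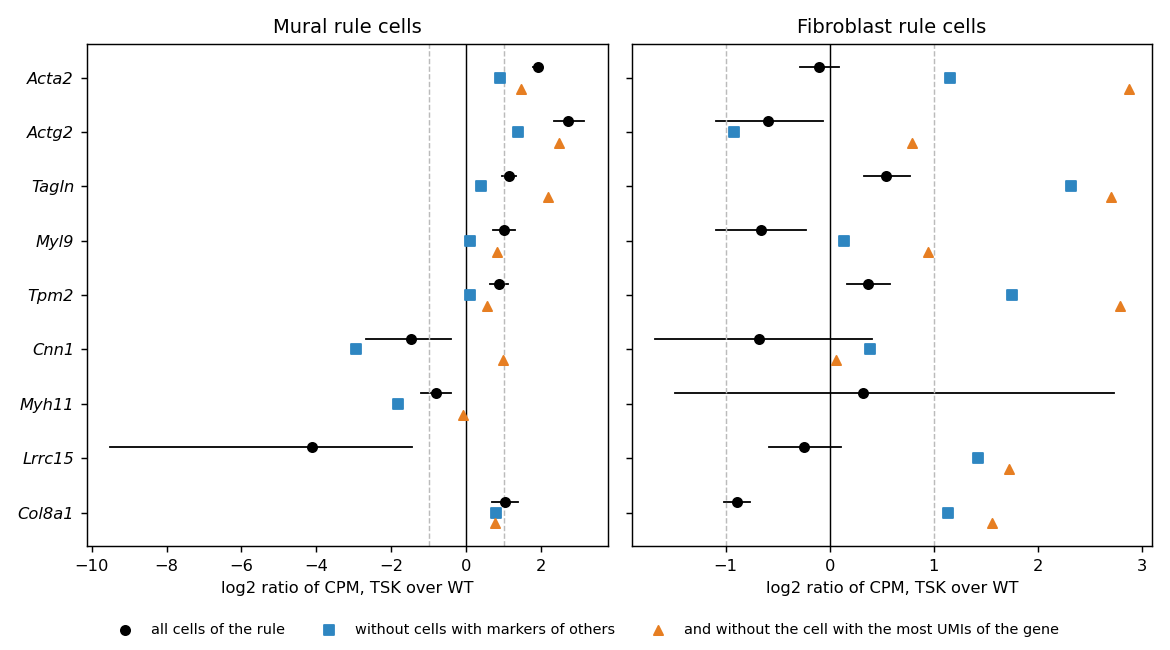
Log2 ratio of TSK over WT for each gene in mural-rule (left) and fibroblast-rule cells (right, another scale), for all cells with exact 95% intervals, without cells that held markers of others, and also without the cell with most UMIs of the gene; dashed lines mark 2-fold. In mural-rule cells Actg2 lies at 2.73 and 1.39 under the first 2, and in fibroblast-rule cells Tagln lies at 0.55 and 2.32.

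Of the 15 WT and 28 TSK cells that met both rules, 5 and 20 had an Acta2 UMI. Actg2 had a UMI in 2 and 16 of them, and Col8a1 in 10 and 21. Summed over all cells of this class, Acta2 stood at 564 CPM in WT and 1773 CPM in TSK (log2 ratio 1.65, 1.49 to 1.82). Tpm2 (1.14) and Myl9 (1.23) were higher in TSK as well. Tagln (0.82) and Actg2 (0.75) were under 2-fold. Col8a1 was lower, at 699 CPM in WT and 249 CPM in TSK (-1.49, -1.72 to -1.26). This made 3 of 7 genes higher and 1 lower, where 18% of all genes with enough UMIs were higher and 9.09% were lower. In WT, 1 of the 15 cells held 360 of 381 Tagln, 111 of 113 Actg2 and 255 of 353 Acta2 UMIs. Endothelial markers were present in 12 of these WT and 8 of the TSK cells, and cancer markers in 3 and 19.

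Over all kept cells of a library, Myh11 alone of the 9 genes differed by 2-fold or more. The share of all genes with such a difference is not given. The log2 ratio of TSK over WT was 0.50 for Acta2, 0.44 for Tpm2, 0.36 for Actg2 and 0.10 for Tagln. It was -0.11 for Myl9, -0.20 for Lrrc15, -0.67 for Col8a1, -0.89 for Cnn1 and -1.24 for Myh11. The counting intervals of Myl9 (-0.32 to 0.09) and Lrrc15 (-0.47 to 0.07) held both signs. Those of the other genes held a single sign, such as Col8a1 (-0.76 to -0.57) and Acta2 (0.42 to 0.58). In these sums fewer cells of a type and less RNA per cell cannot be told apart.

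The wider smooth muscle contraction genes formed a list of 24 without the 9. In mural-rule cells 21 of them had enough UMIs, of which 6 were higher in TSK (Smtn, Des, Csrp1, Ppp1r14a, Cnn2 and Kcnmb1, named after their values were seen) and 1 was lower (Synpo2), where 10.9% of all genes were higher and 8.07% were lower. The median log2 ratio was 0.70 beside 0.19 over all genes. The 4 with the most UMIs were Myl6, an essential light chain of myosin (0.77), Cald1, the actin-binding caldesmon (0.70), Tpm1, a tropomyosin (0.95), and Csrp1, a LIM-domain protein of smooth muscle (1.20). Without cells that held markers of others, 1 of 21 was higher and 2 were lower, beside 14.8% and 9.06% of all genes, with a median of 0.09 beside 0.23. Of the cytoplasmic relatives of the contractile proteins 1 of 12 was higher (Cnn2), a share near the 10.9% of all genes, and without cells with markers of others 0 of 10 were called. Actb and Actg1, the cytoplasmic actins, had log2 ratios of 0.91 and 0.03, and Myh9, the nonmuscle myosin heavy chain, of 0.00. Of the SRF family of regulators, 0 of 3 were called, with Srf at -0.60, Mrtfa at 0.84 and Mrtfb at 0.19. Without cells with markers of others 1 of 2 was higher, Mrtfa at 1.76 from 4 UMIs in WT and 18 in TSK, beside 14.8% of all genes, and Srf had too few UMIs. Skeletal muscle genes had too few UMIs in mural-rule cells for any to be compared.

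Genes of activated, matrix-producing fibroblasts were called higher in mural-rule cells of TSK in 4 of 16 cases, Tnc (1.60), Thbs2 (2.38), Adam12 (1.02) and Mmp13, a collagenase with 1 UMI in WT and 74 in TSK, all named after their values were seen, beside 10.9% of all genes. Without cells with markers of others 4 of 15 were higher and 2 were lower, beside 14.8% and 9.06%. In fibroblast-rule cells 0 of 23 were higher and 18 were lower in TSK, beside 23.7% and 15.4% of all genes, at a median log2 ratio of -1.82. There Col3a1 stood at 8395 CPM in WT and 1830 CPM in TSK, and Col1a2 at 6476 and 1434 CPM, beside shares of cells with cancer markers of 22.7% and 66.9%, whose part in the levels was not tested. Without cells that held markers of others the list had 2 higher (Tnc at 1.76 and Cthrc1 at 1.15) and 2 lower (Col11a1 and Col8a2) of 22, named after their values were seen, beside 16.6% and 3.02% of all genes. The median was 0.21, with Col3a1 at -0.07 and Col1a2 at -0.01.

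Of the 5 genes whose pattern was most like that of Acta2, 3 were among the 9. Over the 14 points made by 7 groups of cells in 2 libraries, and among 15105 genes, the Pearson correlation of log2(CPM + 10) with Acta2 was 0.98 for Tagln, 0.98 for Myl9, 0.97 for Actg2, 0.96 for the platelet-derived growth factor receptor gene Pdgfrb and 0.96 for Fads3. For Col8a1 the first were Col5a2 (0.97), a fibrillar collagen chain, Rbms3 (0.96), Ms4a4d (0.96), Srpx2 (0.95) and Adamts2 (0.95), a procollagen-processing protease. For Lrrc15 they were Colec12 (0.91), Ccn5 (0.90), Col7a1 (0.90), Ak1 (0.89) and Srpx2 (0.88). Srpx2 was thus shared by Lrrc15 and Col8a1. The points share libraries and depth, so these values are descriptions.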

How the data were processed

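The authors prepared 1 droplet-based 3′ single-cell RNA library per genotype from pooled, dissociated tumors and deposited, for each, a matrix of UMI counts per gene and cell barcode. Reads were assigned with Cell Ranger (7.1.0 per the file headers, 7.1.1 in the submitters' processing notes) on mm10. All further values were computed from these counts as deposited, in Python 3.11.15 with numpy 2.4.6, scipy 1.17.1, pandas 2.3.3 and matplotlib 3.10.9. Total depth was 21225411 UMIs in the WT and 48296765 UMIs in the TSK library. For each library a gene's UMIs were added up over the cells of a class and set against 1000000 UMIs of that class (CPM). Ratios carry exact conditional 95% intervals, shares exact binomial ones, and summed levels exact Poisson ones, all for counting error only. No test between genotypes was possible with 1 library each. A gene was called at a 2-fold ratio with at least 20 UMIs over both sides. The scripts were tested on simulated counts. Named genes were the 9, up to 4 with the most UMIs per list, the 5 highest and lowest ratios per class, and the 5 genes most like Acta2, Lrrc15 and Col8a1; other genes are marked as chosen after their values were seen. The 9 genes, the cell rules and the gene lists were chosen with earlier results of these data known. Gene positions came from GENCODE M21 (32235 of 32285 identifiers matched) and promoters from RefSeq. Alternatives covered the cell filters, the cell rules, the scaling, single cells and thinning.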

Additional observations from a re-analysis of the deposited data

Results flagged for a closer look

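Outside the mural rule, 3 genes had ratios of TSK over WT of opposite sign in mural-rule and fibroblast-rule cells with counting intervals that left out 0 in both. Acta2 (1.91 and -0.10) also had opposite signs, but its interval in fibroblast-rule cells included 0. The log2 ratio of Actg2 was 2.73 in mural-rule and -0.59 in fibroblast-rule cells, that of Myl9 1.01 and -0.66, and that of Col8a1 1.03 and -0.89. With 1 library per genotype the difference between the classes was not tested. Without cells that held markers of others, Actg2 kept opposite signs (1.39 and -0.92), while Myl9 (0.10 and 0.14) and Col8a1 (0.79 and 1.14) had the same sign in both classes.

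The barcodes found in both libraries, which the main comparisons left out and an alternative added back, also held these genes. In the WT library 251 such barcodes passed the other filters and held 2369 UMIs of the 9 genes, 763 CPM beside 335 CPM in the kept cells. Of these barcodes 7 met the mural rule, 9 the fibroblast rule and 3 both. In the TSK library 255 such barcodes held 71 UMIs of the 9 genes, 187 CPM beside 358 CPM in the kept cells, and 3 met the mural rule, 3 the fibroblast rule and 0 both. Over all genes these barcodes held 3106376 UMIs in the WT library and 380072 UMIs in the TSK library. Which of the libraries the molecules of a shared barcode came from was not tested.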

How the results depend on the processing

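No paired analysis was possible because each genotype had 1 library. In mural-rule cells the log2 ratios of Acta2, Actg2, Tagln, Myl9 and Tpm2 were above 0 under the 17 or 18 alternatives run for each, at 0.90 to 3.61, 1.39 to 4.09, 0.39 to 2.25, 0.10 to 3.24 and 0.10 to 2.54. They were past 2-fold in 17 of 18, 17 of 17, 13 of 18, 8 of 18 and 6 of 18. The alternatives include those that left out only the WT cell richest in the 9 genes. Cnn1 (29 UMIs in WT and 10 in TSK mural-rule cells) and Lrrc15 (18 and 1) had few UMIs, and 1 WT cell held 112 of the 151 WT UMIs of Myh11. The count of 5 genes higher in TSK became 3 with up to 20% mitochondrial UMIs, 2 with scores at 2 or more UMIs, 3 with cells of both rules counted as mural, 1 without cells with markers of others and 2 when libraries were scaled to the median gene. Among alternatives chosen after seeing the data it became 2 without cells with endothelial or leukocyte markers, 3 without cells with cancer markers, and 3 without cells with markers of others and without the top cell of each gene. The count of 0 in fibroblast-rule cells became 2 with the study's upper limits of 10000 UMIs and 10000 genes, 5 without cells with markers of others, 1 without the top cell, and, chosen after seeing the data, 5 without cells with cancer markers and 5 without marked cells and top cell. The count of 6 genes higher in mural-rule than fibroblast-rule cells of WT became 2 under the upper limits. Shares of all genes are not given for most of these alternatives, so a changed count shows only how the calls moved. Without cells with markers of others, 14.8% of all genes were higher in TSK in mural-rule cells and 16.6% in fibroblast-rule cells. With all cells of a rule these shares were 10.9% and 23.7%. The mural share of 2.26% in TSK became 1.65% under the upper limits, 3.21% with cells of both rules and 0.946% without marked cells, and that of 2.84% in WT became 1.41%, 3.88% and 0.832%. Signs turned as follows, and the cause was not tested. Under the upper limits the log2 ratio was 0.14 for Cnn1 in mural-rule cells, and 1.05 for Col8a1, 0.68 for Myl9 and -0.056 for Tagln in fibroblast-rule cells. With cells of both rules counted as mural, Col8a1 was at -0.52 in mural cells. Without the top cell, Cnn1 was at 2.64 and Myh11 at 0.67 in mural-rule cells and Actg2 at 0.23 in fibroblast-rule cells. The WT cell richest in the 9 genes held nearly all Cnn1 and Lrrc15 UMIs of WT mural-rule cells, and leaving it out touched WT only. Without it Cnn1 was at 3.33, Myh11 at 1.11 and Lrrc15 at 0.0031 in mural-rule cells. With marked cells also left out Cnn1 was at 1.64 and Myh11 at 0.76. Without marked cells, Col8a1 was at 1.14 and Myl9 at 0.14 in fibroblast-rule cells, and with the top cell also left out Col8a1 was at 1.56, Myl9 at 0.95 and Actg2 at 0.79 there and Cnn1 at 0.99 in mural-rule cells. Without cells with cancer markers Col8a1 was at 1.23 and Myl9 at 0.60 in fibroblast-rule cells. There equal weight per cell gave 0.27 for Col8a1 and 0.00054 for Myl9, the mural score without Myh11 gave -0.54 for Tagln, and leaving out cells with endothelial or leukocyte markers gave -0.042 for Tpm2.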

Other observations

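Beside the contractile genes, other genes had larger differences between the libraries in mural-rule cells. Among genes with at least 50 UMIs in these cells and 10 in each library, the 5 with the highest log2 ratio of TSK over WT were Pclaf (3.20) and Hist1h2ap (2.82), a replication factor partner and a histone of dividing cells, Esm1 (2.95), a proteoglycan of endothelial tip cells, Actg2 (2.73) and Ddah1 (2.62). The 5 lowest were Cd74 (-4.67), Ubd (-4.37), Cd36 (-3.93), H2-Eb1 (-3.48) and H2-Ab1 (-3.41), of which Cd74, H2-Eb1 and H2-Ab1 encode the MHC class II complex and its invariant chain. Endothelial markers were present in 61.0% of these cells in WT and 49.3% in TSK. Without cells with markers of others the 5 highest were Hist1h2ap (2.71), Ccnd1 (2.45), Ccl7 (2.36), Filip1 (2.25) and Csrp2 (2.17), and the lowest included Iigp1 (-4.05), Gm48099 (-2.77), Cdk8 (-2.77) and Gm4951 (-2.73).

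In fibroblast-rule cells the highest ratios belonged to Hist1h2ap (4.71), Sgo1 (3.98), Hist1h1b (3.87), Col25a1 (3.82) and Hist1h2ab (3.76), among them 3 histone genes and a guardian of chromosome cohesion. The lowest were Slc44a4 (-5.65), Gm35339 (-5.41), Cxcl13 (-5.39), a chemokine that attracts B cells, Acer2 (-5.34) and Col6a5 (-5.02). Cancer markers were present in 22.7% of these cells in WT and 66.9% in TSK. Without cells with markers of others the 5 highest were Spp1 (4.21), the secreted phosphoprotein osteopontin, Ass1 (3.30), Dmkn (3.23), Pola1 (3.17) and Hist1h2ap (2.97), and the lowest included Col6a5 (-3.99), Adgrb3 (-3.19), Prr16 (-2.77) and Gm48099 (-2.76).

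Cells near the limit of the mural rule varied in Acta2. At a mural score of 2 UMIs, just outside the rule, 10 WT and 23 TSK cells had Acta2 at 122 and 161 CPM. At a score of 3, just inside, 5 WT and 8 TSK cells had it at 16.3 and 130 CPM, and at a score of 4 it stood at 23.1 CPM in 6 WT cells and 1387 CPM in 9 TSK cells.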
